A study of Homo sapiens with 6 samples.

Results

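The genes described here were those whose read counts stood on the same side of the control in all 4 libraries from lung fibroblasts transfected with a TAZ siRNA. Both siRNAs were taken as a single group of 4 libraries and set against the 2 libraries of the non-targeting control. Counts were divided by the library's total over genes with a symbol and given per 1000000 counts (CPM). The members were thus chosen by their measured CPMs in these 6 libraries. A gene was called raised where its 4 siTAZ CPMs all lay above both siNTC CPMs, and lowered where all lay below both. Of 22147 genes, 3381 were raised and 2349 were lowered, which makes 5730 members, and the other 16417 overlapped. The background is therefore 15.3% raised and 10.6% lowered. As the rule used these values, the differences from siNTC are given as a description and carry no test.

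The cells were HFL-1, a line of human fetal lung fibroblasts grown in serum-containing medium on plastic. They were transfected with 20 nM Stealth siRNA by Lipofectamine RNAiMAX, either with siNTC, which targets no gene, or with siTAZ #1 or siTAZ #2, which are different siRNAs against TAZ. RNA was collected 48 h later, and Ion Proton sequencing gave 2 libraries for each of the 3 groups. The knockdown was transient and in a single cell line, every group received a transfected siRNA, and no untransfected cells were among the samples.

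TAZ, encoded by WWTR1, is a transcriptional coactivator that has no DNA-binding domain and reaches its target genes mainly through TEAD factors, as its paralog YAP does. The Hippo kinases LATS1 and LATS2 phosphorylate both proteins and hold them in the cytoplasm, while a stiff matrix and tension on the actin cytoskeleton favor the nuclear form. In fibroblasts, TAZ and YAP are known for the transcription of matricellular, cytoskeletal and growth genes.

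The libraries held 15648055 to 32078188 counts on genes with a symbol, so that 1 CPM stood for 15.6 to 32.1 counts. The second siTAZ #1 library had almost no counts from RANGAP1 on chromosome 22 to its end and on X and Y, so 1208 genes were left out. That stretch took 0.249% of the counts of this library and 3.59% to 3.76% in the others. The totals behind the CPMs still include the stretch, so the CPMs of this library stand slightly high beside the others. With totals that leave the stretch out, 3256 genes were raised and 2474 lowered. Without the second siTAZ #1 library the rule gave 3858 raised and 2978 lowered genes, as fewer libraries have to clear the controls. Replicates of a group were not copies of 1 library, as the chi-square of their counts averaged 5.88 over genes with siNTC and 26.4 and 13.1 with siTAZ #1 and siTAZ #2. All 14 fibroblast markers had a mean count of at least 50, and their summed level was 45900 to 46000 CPM with siNTC and 35700 to 40600 CPM with siTAZ. Among markers of other cells, this count was reached by 4 of 18 for epithelium, 2 of 10 for endothelium and 1 of 12 for blood. Their summed levels were at most 74.2 CPM with siNTC and 75.3 CPM with siTAZ. The 10 markers of smooth muscle and pericytes summed to 933 to 963 CPM and 746 to 1140 CPM. In bulk RNA, a change in the make-up of the culture and a change in RNA per cell cannot be told apart.

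WWTR1 itself was a lowered gene. It lies on chromosome 3 from 149235022 to 149454501 of GRCh37 and was at 130.5 and 128 CPM with siNTC, 26.1 and 28.9 CPM with siTAZ #1 and 46.9 and 43.4 CPM with siTAZ #2. Every siTAZ library was below both controls, and the mean was 3.56-fold lower (log2 ratio -1.83). The siRNAs differed from each other in the depth of the loss (log2 difference -0.72, standard error 0.12, edgeR FDR 0.00023; edgeR's quasi-likelihood test, adjusted by Benjamini-Hochberg over 13440 genes).

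To keep the description to genes with enough counts, most of what follows concerns genes with a mean of at least 50 counts over the 6 libraries. These were 11523, with 2553 raised (22.2%) and 1887 lowered (16.4%). The order of these counts turned with TMM normalization, which gave 2185 raised and 2291 lowered and moved the median log2 ratio of all genes from 0.06 to 0.00. The median log2 ratio of mean CPMs was 0.63 over the raised genes and -0.51 over the lowered genes, against 0.06 over all 11523. A mean ratio of at least 2-fold was found in 566 raised and in 220 lowered genes. The distance between the nearest siTAZ and siNTC libraries, called the gap below, reached 2-fold in 156 raised and 54 lowered genes. Taken by siRNA against the same siNTC libraries, the median log2 ratio of the raised genes was 0.56 with siTAZ #1 and 0.64 with siTAZ #2, and that of the lowered genes was -0.46 and -0.52.

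Many members lay close to the threshold. The raised gene SGTA had 81.8 and 78 CPM with siNTC, 88.3 and 81.8 CPM with siTAZ #1 and 82.7 and 83.7 CPM with siTAZ #2, so that its lowest siTAZ library and its highest siNTC library were equal at this precision. C9orf86 was just inside on the same side, with 144 and 156 CPM with siNTC, 189 and 186 CPM with siTAZ #1 and 157 and 156 CPM with siTAZ #2. Just outside were NUDC, with 48.3 and 51.5 CPM with siNTC, 51.5 and 92.8 CPM with siTAZ #1 and 84.4 and 69 CPM with siTAZ #2, and TNKS, with a log2 ratio of 0.30. On the lowered side, DDX42 and CSNK2B were just inside, with log2 ratios of -0.09 and -0.26, and HMOX2 and EP400NL just outside, with -0.22 and -0.39. The rule does not order genes by the size of the ratio, since NUDC, which it left out, had a log2 ratio of 0.58 against 0.07 for SGTA. Among all members, whatever their mean count, 200 raised genes had no count in either siNTC library, and 39 lowered genes had none in any siTAZ library. Where such genes have low counts, a few reads decide the side.

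The targets of TAZ were looked at next, beginning with CTGF (now CCN2), a matricellular protein secreted by fibroblasts and a classic target of YAP and TAZ. The bases before its start are shown because they hold the TEAD motif GGAATG, printed in capitals, 3 times. They are given on the gene's strand from RefSeq (GRCh38.p14, minus strand, chr6:131951432-131951572), from base 200 to base 60 before the start.
CTGF: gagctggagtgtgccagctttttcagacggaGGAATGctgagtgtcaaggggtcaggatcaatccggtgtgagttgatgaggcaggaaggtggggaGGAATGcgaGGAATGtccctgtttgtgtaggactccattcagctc
In these libraries CTGF was at 1264 and 1207 CPM with siNTC, 482 and 421 CPM with siTAZ #1 and 306 and 312 CPM with siTAZ #2. The 4 siTAZ libraries lay well below the controls, with a mean 3.25-fold lower. The siTAZ #2 libraries were the lower of the 4 (log2 difference 0.55, standard error 0.11, edgeR FDR 0.00074).

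Of 23 canonical YAP/TAZ targets, 9 were lowered and 3 raised, with a median log2 ratio of -0.22 against 0.06 over all genes. Of the 9 lowered ones 6 had a promoter in RefSeq, and of these only CTGF held GGAATG. Of the 3 raised ones 2 had a promoter and 1 held it, and these shares were not compared. IGFBP3, which binds insulin-like growth factors outside the cell, was at 306 and 336 CPM with siNTC, 14.4 and 17.3 CPM with siTAZ #1 and 34.1 and 27.2 CPM with siTAZ #2. CRIM1, a membrane protein that binds BMPs, was at 454 and 462 CPM with siNTC, 145 and 144 CPM with siTAZ #1 and 196 and 163 CPM with siTAZ #2. For both genes the groups were far apart, with means 13.8-fold and 2.83-fold lower. The 3 raised targets were F3, the tissue factor that starts coagulation (2.04-fold higher), ARHGEF17, a guanine nucleotide exchange factor (1.58-fold higher), and the Hippo kinase LATS2 (1.52-fold higher), which puts members of this list on both sides.

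The Hippo pathway's own components were divided too, with 7 raised and 6 lowered of 25, and the balance turned to 6 raised and 7 lowered with TMM normalization. LATS1, which phosphorylates TAZ and YAP, was at 14.9 and 13.1 CPM with siNTC, 30 and 32 CPM with siTAZ #1 and 34.3 and 38.4 CPM with siTAZ #2. YAP1, the gene of YAP, was at 208 and 191 CPM with siNTC, 280.1 and 355 CPM with siTAZ #1 and 329 and 268 CPM with siTAZ #2. Both stood higher in all siTAZ libraries, by 2.4-fold and 1.54-fold. WWC1, an upstream scaffold of the kinases, was 2.04-fold lower, and AMOTL1, an angiomotin that holds YAP and TAZ in the cytoplasm, was 1.51-fold lower. VGLL4, which competes for TEAD factors, was 1.44-fold higher.

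The raised genes with the widest gaps had diverse functions. SLC6A15, a transporter of neutral amino acids, had the widest, at 11.5 and 8.88 CPM with siNTC, 242 and 312 CPM with siTAZ #1 and 209 and 238 CPM with siTAZ #2. GDF15, a stress-induced TGF-beta family ligand, was at 15.8 and 17.6 CPM with siNTC, 202 and 192 CPM with siTAZ #1 and 143 and 162 CPM with siTAZ #2. TGFBR1, the type I receptor of TGF-beta, was at 13.8 and 14.6 CPM with siNTC, 96.9 and 105 CPM with siTAZ #1 and 71.5 and 71.4 CPM with siTAZ #2. In these genes the lowest siTAZ library stood several times above the highest control, and the means were 24.5-fold, 10.4-fold and 6.1-fold higher.

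PLAT, the tissue plasminogen activator, and STC1, the secreted glycoprotein stanniocalcin 1, were raised to very different extents by the siRNAs. PLAT was at 123 and 119.7 CPM with siNTC, 1191 and 1299.8 CPM with siTAZ #1 and 521 and 665 CPM with siTAZ #2, and STC1 was at 41.5 and 34.3 CPM with siNTC, 1489 and 1634 CPM with siTAZ #1 and 257 and 328 CPM with siTAZ #2. The siTAZ #1 libraries were the higher ones for both genes, by a log2 difference of 1.06 (standard error 0.12, edgeR FDR 3.5e-06) and 2.41 (standard error 0.13, edgeR FDR 3.7e-09). CHRNA1, a subunit of the muscle acetylcholine receptor, showed the opposite order, at 0.813 and 0.493 CPM with siNTC, 15 and 12.9 CPM with siTAZ #1 and 35 and 41.3 CPM with siTAZ #2 (log2 difference -1.46, standard error 0.20, edgeR FDR 3.2e-05). The coiled-coil gene CCDC68 did so too, with 20.7-fold higher mean levels and a log2 difference of -1.28 (standard error 0.18, edgeR FDR 5.5e-05). The kinase gene NEK7 was nearly the same with either siRNA, at 15.1 and 13.3 CPM with siNTC, 74.1 and 80.2 CPM with siTAZ #1 and 83.7 and 67.9 CPM with siTAZ #2. Its log2 difference between the siRNAs was 0.02 with a standard error of 0.13. CXADR, the coxsackie and adenovirus receptor, TMEM64, TMEM87B and LOC729950 completed the 12, with means 14.1-fold, 6.42-fold, 7.43-fold and 13.1-fold higher. With siNTC, CXADR was at only 0.25 and 0.37 CPM and LOC729950 at 0.69 and 0.56 CPM. The ratios of these genes thus rest on few control counts, and they reached a mean of 50 counts through the siTAZ libraries.

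On the lowered side the widest gap belonged to TXNIP, which binds and inhibits thioredoxin, at 228 and 228 CPM with siNTC, 10.8 and 10.8 CPM with siTAZ #1 and 17.8 and 21.9 CPM with siTAZ #2. IL6R, the interleukin 6 receptor, was at 47.8 and 46.7 CPM with siNTC, 5.69 and 5.67 CPM with siTAZ #1 and 0.904 and 1.16 CPM with siTAZ #2. PPAP2B, a lipid phosphate phosphatase of the cell surface, was at 348 and 336 CPM with siNTC, 49.9 and 53.6 CPM with siTAZ #1 and 30.6 and 28.6 CPM with siTAZ #2. The groups were separated in all 3 genes by more than 6-fold at the nearest libraries, and IL6R was the lower with siTAZ #2 (log2 difference 2.46, standard error 0.25, edgeR FDR 2.1e-06).

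Other lowered genes of this kind encode proteins of the cell surface, the matrix and metabolism. ADAMTS15, a protease that cleaves aggrecan and versican, was at 42.6 and 47 CPM with siNTC, 9.78 and 7.61 CPM with siTAZ #1 and 10.3 and 6.63 CPM with siTAZ #2, with a log2 difference between the siRNAs of 0.01 (standard error 0.23). ELOVL2, an elongase of polyunsaturated fatty acids, was at 65.5 and 65.1 CPM with siNTC, 17.6 and 15.7 CPM with siTAZ #1 and 16.4 and 14.4 CPM with siTAZ #2. Both were thus low with either siRNA. SULF1, which removes sulfate groups from heparan sulfate, was 4.27-fold lower, WNT2, a Wnt ligand of lung mesenchyme, 4.6-fold lower, B3GALT2, a galactosyltransferase, 7.57-fold lower, and SLC7A14, a solute carrier, 5.14-fold lower. IGFBP3, given above with the YAP/TAZ targets, and PCK2 and INHBE, described with the amino acid genes below, made up the 12.

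**Figure D1:**
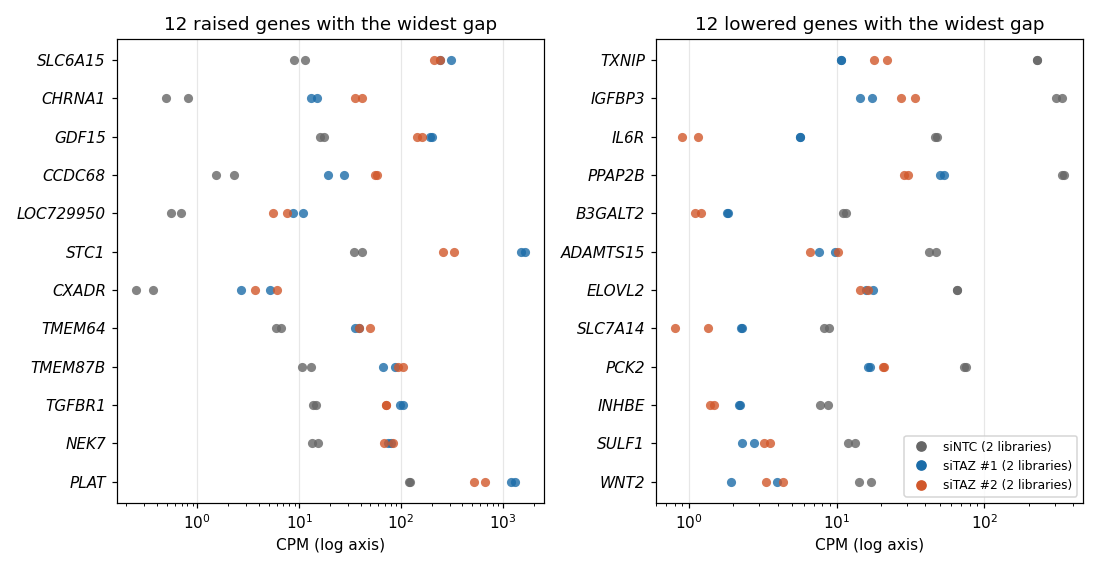
CPM on a log axis of the 12 raised and the 12 lowered genes with the widest gap, among genes that averaged 50 counts or more. Each point is a library (2 with siNTC, 2 with siTAZ #1 and 2 with siTAZ #2). The controls stand apart from all siTAZ libraries in every gene by the way the genes were chosen, while the siRNAs differ in, among others, STC1, PLAT, CCDC68 and IL6R.

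The members were then read by function, in 71 lists. Raised genes outnumbered lowered genes in 35 lists and lowered genes outnumbered raised genes in 35. The lists were put together with earlier results of these data known, and their counts are a description. Each is to be read beside 22.2% raised and 16.4% lowered over all genes and a median log2 ratio of 0.06.

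Genes of the amino acid response stood on the lowered side. When amino acids are scarce or proteins misfold, the translation of the transcription factor ATF4 increases, and ATF4 together with C/EBP partners turns on genes for amino acid synthesis, import and tRNA charging. Of 43 such genes in the list used here, 30 were lowered (69.8%) and 0 raised, with a median log2 ratio of -0.60. The count holds for this list only, and the stress-induced ligand GDF15, raised 10.4-fold, was not in it. The lowered ones ranged from 1.1-fold to 4.55-fold. Of these 30 genes, 16 were lower with siTAZ #2 than with siTAZ #1 and 3 lower with siTAZ #1, at an edgeR FDR under 0.05. Over all 13440 genes tested, 18.7% were lower with siTAZ #1 and 19.5% higher, and among the 2099 lowered genes tested these were 264 and 396.

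ASNS, asparagine synthetase, has a well-known amino acid response element in its promoter. Its bases are shown with those of 3 aminoacyl-tRNA synthetases that were also lowered and whose 250 bases before the start hold a match to TGATGNAAN, on either strand and in capitals. They are from RefSeq (GRCh38.p14, all on the minus strand) and cover chr7:97872438-97872508 for ASNS, chr16:70289656-70289726 for AARS, chr12:32756057-32756127 for YARS2 and chr9:92293698-92293767 for IARS.
ASNS: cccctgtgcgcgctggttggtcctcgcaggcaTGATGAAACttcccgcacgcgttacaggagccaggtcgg
AARS: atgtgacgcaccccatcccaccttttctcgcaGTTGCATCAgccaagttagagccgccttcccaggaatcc
YARS2: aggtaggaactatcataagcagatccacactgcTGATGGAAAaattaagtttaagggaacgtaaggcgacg
IARS: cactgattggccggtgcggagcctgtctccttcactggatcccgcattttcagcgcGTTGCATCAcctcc
A match describes letters and was not tested as a site. The match is TGATGAAAC in ASNS and TGATGGAAA in YARS2, and in AARS and IARS it is read on the other strand. Among the 22 lowered synthetases, 18 had a promoter in RefSeq and 5 held the motif. Of the 30 lowered amino acid response genes, 24 had a promoter and 3 held it. Too few genes had a promoter for such shares to be compared with those of other genes.

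ASNS was at 148 and 144 CPM with siNTC, 64.5 and 58.8 CPM with siTAZ #1 and 38.2 and 26.5 CPM with siTAZ #2. PCK2, the mitochondrial enzyme that makes phosphoenolpyruvate, was at 74.7 and 73.2 CPM with siNTC, 16.8 and 16.3 CPM with siTAZ #1 and 20.6 and 21 CPM with siTAZ #2. INHBE, a subunit of activin E, was at 8.76 and 7.77 CPM with siNTC, 2.17 and 2.21 CPM with siTAZ #1 and 1.48 and 1.4 CPM with siTAZ #2. None of the siTAZ libraries came near the controls in these genes, and the means were 3.11-fold, 3.96-fold and 4.55-fold lower. ASNS was the lower with siTAZ #2 (log2 difference 0.92, standard error 0.15, edgeR FDR 0.00018), whereas PCK2 had a log2 difference of -0.34 (standard error 0.14, edgeR FDR 0.079). Among the carriers that bring amino acids into the cell, SLC7A5, which imports leucine, was 2.13-fold lower and SLC6A9, which imports glycine, 2.37-fold lower. SLC6A15, named above, was on the raised side and belongs to the transporter list, in which 3 of 23 were raised and 6 lowered.

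Enzymes of serine, glycine and one-carbon metabolism, which feed nucleotide and glutathione synthesis, followed the same side with 11 lowered and 0 raised of 24 (median log2 ratio -0.31). This list shares 7 genes with the amino acid response list. ALDH1L2, the mitochondrial formyltetrahydrofolate dehydrogenase, was at 128 and 138 CPM with siNTC, 50.2 and 57.4 CPM with siTAZ #1 and 30.3 and 30.4 CPM with siTAZ #2. PSAT1, the serine synthesis aminotransferase, was at 87.6 and 102 CPM with siNTC, 53.3 and 58.2 CPM with siTAZ #1 and 41.9 and 28.5 CPM with siTAZ #2. Both were lowest with siTAZ #2, and 9 of the 11 lowered enzymes were lower with it at an edgeR FDR under 0.05, beside 19.5% of all genes tested. CBS, which makes cystathionine from homocysteine, was 1.88-fold lower.

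The aminoacyl-tRNA synthetases and their partners had 22 lowered and 1 raised of 40, with 5 genes shared with the amino acid response list. GARS, which charges glycine tRNA, was at 494 and 546 CPM with siNTC, 253 and 235 CPM with siTAZ #1 and 224 and 216 CPM with siTAZ #2, and WARS, which charges tryptophan tRNA, was at 346 and 343 CPM with siNTC, 217 and 209 CPM with siTAZ #1 and 199 and 227 CPM with siTAZ #2. AIMP2, a scaffold of the multi-synthetase complex, was 1.89-fold lower. AARS was at 251 and 275 CPM with siNTC, 226 and 209 CPM with siTAZ #1 and 97.7 and 109 CPM with siTAZ #2, close to the controls with siTAZ #1 and far below them with siTAZ #2 (log2 difference 1.07, standard error 0.12, edgeR FDR 3.4e-06). IARS was nearer to the controls with siTAZ #2, at 481 and 471 CPM with siNTC, 315 and 297 CPM with siTAZ #1 and 447 and 443 CPM with siTAZ #2 (log2 difference -0.54, standard error 0.10, edgeR FDR 0.00048), and YARS2 was 1.28-fold lower. MARS2, the mitochondrial methionine enzyme, was the raised one at 2.68-fold.

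**Figure D2:**
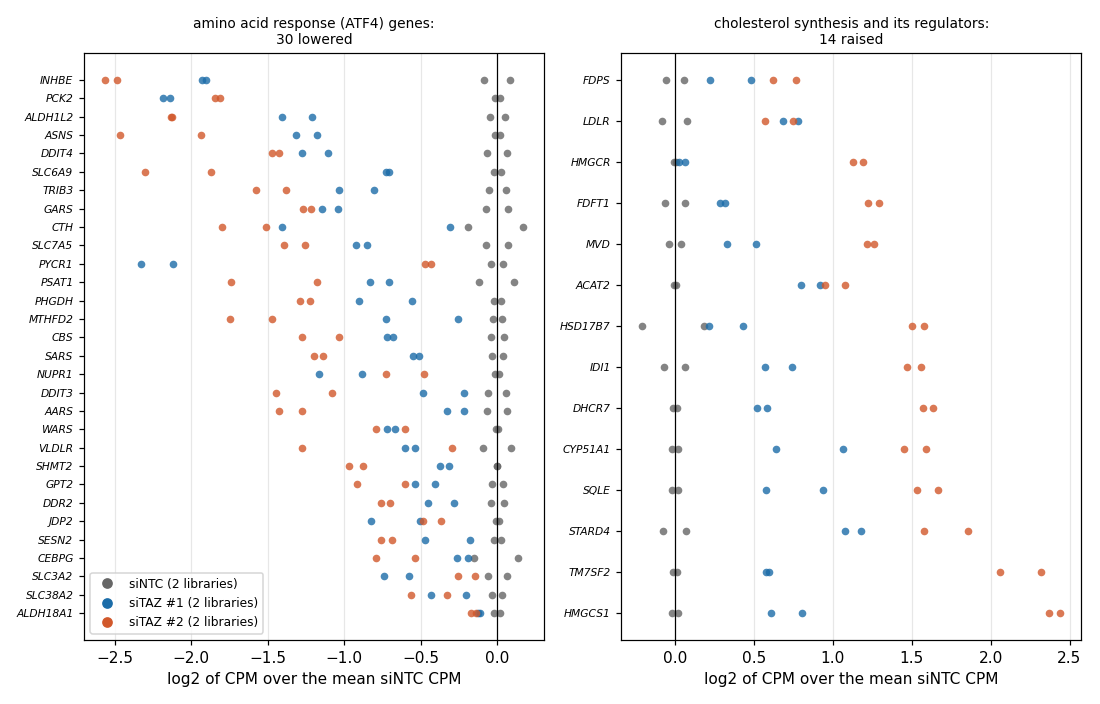
The log2 of each library's CPM over the mean siNTC CPM for the 30 lowered amino acid response genes and the 14 raised cholesterol genes, 1 row per gene and 1 point per library. In most rows of both panels the siTAZ #2 libraries lie farther from 0 than the siTAZ #1 libraries, and PYCR1 and PCK2 are among the exceptions.

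Other genes of translation were also mostly lowered where they were members. Cytosolic ribosomal proteins had 31 lowered and 0 raised of 71, from 1.09-fold to 1.94-fold, with a median log2 ratio of -0.21 for the list. RPL13A was at 311 and 282 CPM with siNTC, 209 and 186 CPM with siTAZ #1 and 94.7 and 122 CPM with siTAZ #2, and RPL23A was 1.58-fold lower. These genes have many processed pseudogenes, and how reads that fit several copies were treated is not given in the sources used here. SnoRNA host genes, whose introns carry small nucleolar RNAs for ribosomal RNA, had 10 lowered and 0 raised of 18. GAS5, the best studied of them, was at 65 and 63.4 CPM with siNTC, 25.9 and 28.9 CPM with siTAZ #1 and 25 and 30 CPM with siTAZ #2, with SNHG8 2.13-fold lower and SNHG12 1.9-fold lower. Of the initiation and elongation factors, 22 of 64 were lowered and 3 raised, and EEF2, which moves the ribosome along the message, was at 3776 and 3610.0 CPM with siNTC, 2583 and 2312 CPM with siTAZ #1 and 2316 and 2432 CPM with siTAZ #2. In mitochondrial ribosomes 19 of 75 proteins were lowered and 7 raised, with MRPL24 2.24-fold lower.

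Several other metabolic lists stood on the lowered side. The list of the NRF2 antioxidant response had 17 lowered and 2 raised of 33 (median log2 ratio -0.32). The list also held TXNIP, which opposes thioredoxin and had its largest ratio. The other lowered genes included HMOX1, heme oxygenase 1, at 44.9 and 39.3 CPM with siNTC, 25.2 and 26 CPM with siTAZ #1 and 21.8 and 20.9 CPM with siTAZ #2, and OSGIN1 at 1.64-fold lower. Mitochondrial fatty acid oxidation and the breakdown of branched-chain amino acids had 15 lowered and 3 raised of 36. HADHA, the alpha subunit of the trifunctional protein, was at 182 and 185 CPM with siNTC, 102 and 104 CPM with siTAZ #1 and 37.2 and 36.4 CPM with siTAZ #2, and the loss was deeper with siTAZ #2 (log2 difference 1.48, standard error 0.11, edgeR FDR 1e-07). ALDH6A1, of valine breakdown, was 3.01-fold lower. The tricarboxylic acid cycle and pyruvate enzymes had 11 lowered and 3 raised of 35, and both SUCLG1 and SUCLG2, which encode succinyl-CoA ligase subunits, were lowered by 1.91-fold and 2.13-fold. For nucleotide synthesis the counts were 10 lowered and 2 raised of 30. IMPDH2, the rate-limiting enzyme of guanine nucleotide synthesis, was at 249 and 239.6 CPM with siNTC, 106 and 90 CPM with siTAZ #1 and 101 and 99.7 CPM with siTAZ #2. RRM2B, a ribonucleotide reductase subunit, was raised and stood at 18.3 and 19.7 CPM with siNTC, 101 and 139 CPM with siTAZ #1 and 50.8 and 46.4 CPM with siTAZ #2.

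Cholesterol synthesis stood on the opposite side. When sterols are low, SREBP factors turn on the enzymes of this pathway and the LDL receptor. Of 26 genes 14 were raised (53.8%) and 0 lowered, with a median log2 ratio of 0.72. HMGCS1, which makes HMG-CoA, was at 58.2 and 59.8 CPM with siNTC, 89.9 and 103 CPM with siTAZ #1 and 320.3 and 305 CPM with siTAZ #2. CYP51A1, the lanosterol demethylase, was at 39.2 and 40.2 CPM with siNTC, 61.9 and 83.1 CPM with siTAZ #1 and 119.8 and 108 CPM with siTAZ #2. STARD4, a carrier of cholesterol, was at 19.9 and 22.1 CPM with siNTC, 44.4 and 47.6 CPM with siTAZ #1 and 76.1 and 62.8 CPM with siTAZ #2. The siTAZ #1 libraries lay between the controls and the siTAZ #2 libraries in all 3, and 12 of the 14 raised genes were higher with siTAZ #2 at an edgeR FDR under 0.05 and none higher with siTAZ #1. Over all genes tested 18.7% were higher with siTAZ #2, and of the 2866 raised genes tested 503 were. HMGCS1 had one of the lowest FDRs of all raised genes (log2 difference -1.70, standard error 0.11, edgeR FDR 2.1e-08). ACAT2, which makes acetoacetyl-CoA, was 1.92-fold higher with a log2 difference between the siRNAs of -0.16 (standard error 0.12). In the list of fatty acid synthesis and desaturation 7 of 29 were raised (24.1%, beside 22.2% over all genes) and 3 lowered. The 3 lowered genes, ELOVL2 among them, were 3.7-fold to 8.41-fold lower, and the raised ones at most 2.84-fold higher. The largest loss was in PPAP2B, the lipid phosphate phosphatase named above, which does not itself make fatty acids. ACLY, which makes cytosolic acetyl-CoA from citrate, was at 159 and 162 CPM with siNTC, 533 and 467 CPM with siTAZ #1 and 419 and 408 CPM with siTAZ #2, FASN, the fatty acid synthase, was 1.74-fold higher and FADS2, a desaturase, 2.01-fold higher.

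In the lysosome and autophagy list 28 of 52 were raised (53.8%) and 7 lowered, with raised genes from 1.12-fold to 1.81-fold. SCARB2, the receptor that delivers glucocerebrosidase to lysosomes, was at 289 and 282 CPM with siNTC, 473 and 475 CPM with siTAZ #1 and 548 and 565 CPM with siTAZ #2. NEU1, the lysosomal sialidase, was 1.6-fold higher and ATG9A, the membrane protein of autophagosome formation, 1.54-fold higher. For N-glycosylation the counts were 18 raised and 3 lowered of 47, with MAN1A2, a Golgi mannosidase, 1.96-fold higher. Chaperones and unfolded protein response genes of the endoplasmic reticulum had 16 raised and 7 lowered of 35. DNAJB11, a co-chaperone of BiP, was 2.16-fold higher, while XBP1, a transcription factor of the response, was lowered and stood at 130.3 and 149.6 CPM with siNTC, 75 and 81.7 CPM with siTAZ #1 and 45.5 and 43.7 CPM with siTAZ #2. RAB GTPases, the switches of vesicle traffic, had 18 raised and 4 lowered of 51, among them RAB27B, of secretory granules, at 0.375 and 0.864 CPM with siNTC, 5.18 and 4.61 CPM with siTAZ #1 and 4.19 and 3.77 CPM with siTAZ #2.

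Among signalling lists, BMP antagonists and co-receptors had 7 lowered and 1 raised of 13 (median log2 ratio -0.79). GREM1, a secreted BMP antagonist of lung fibroblasts, was at 868 and 884 CPM with siNTC, 359.9 and 366 CPM with siTAZ #1 and 309 and 279.9 CPM with siTAZ #2. TGFBR3, the co-receptor betaglycan, was at 87.2 and 93.3 CPM with siNTC, 35.7 and 31.6 CPM with siTAZ #1 and 12.2 and 15.4 CPM with siTAZ #2. Both were lower in every siTAZ library, by 2.67-fold and 3.8-fold. Of the BMP ligands, receptors and ID targets, 9 of 24 were raised and 3 lowered. SMAD5, which carries the BMP signal, was at 30.9 and 30.8 CPM with siNTC, 104 and 116 CPM with siTAZ #1 and 114 and 93.6 CPM with siTAZ #2, and ID1, a target gene of the pathway, was at 10.4 and 10.2 CPM with siNTC, 19.2 and 16.2 CPM with siTAZ #1 and 17.6 and 20.4 CPM with siTAZ #2, 1.78-fold higher. In the TGF-beta list 7 were raised and 2 lowered of 20, and SMAD3 was 1.4-fold lower while its receptor TGFBR1 was raised.

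Notch genes had 7 raised and 1 lowered of 11. RBPJ, the DNA-binding partner of Notch, was at 170.2 and 164 CPM with siNTC, 309.9 and 397 CPM with siTAZ #1 and 421 and 357 CPM with siTAZ #2, NOTCH3 was 2.4-fold higher, and HES1, a Notch target, stood at 0.625 and 1.17 CPM with siNTC, 6.9 and 9.41 CPM with siTAZ #1 and 1.62 and 1.64 CPM with siTAZ #2, near the controls with siTAZ #2. NOTCH2 was the lowered gene at 1.28-fold. Cytokines, chemokines and their receptors had 10 raised and 2 lowered of 24. IL11, a fibroblast cytokine of the interleukin 6 family, was at 10.6 and 12.4 CPM with siNTC, 53 and 57.1 CPM with siTAZ #1 and 46.3 and 44.4 CPM with siTAZ #2, and CCL2, a monocyte chemokine, was 2.22-fold higher. CXCL12, a chemokine made by stroma, was lowered, at 123 and 139.6 CPM with siNTC, 51.9 and 55.5 CPM with siTAZ #1 and 35.7 and 21.7 CPM with siTAZ #2. In the growth factor list 7 were raised and 3 lowered of 25. AREG, an EGF receptor ligand, was at 5.63 and 3.15 CPM with siNTC, 158 and 179.6 CPM with siTAZ #1 and 14 and 36.1 CPM with siTAZ #2. It was 22.1-fold higher in the mean and differed between the siRNAs (log2 difference 2.76, standard error 0.29, edgeR FDR 2.8e-06).

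The MAP kinase and early response lists include genes that growth factors turn on through ERK. In the MAP kinase list 14 of 40 were raised and 3 lowered. The 3 lowered genes all encode phosphatases of the DUSP family, DUSP1 among them, and were 1.21-fold to 1.82-fold lower. SPRY4, a feedback inhibitor of receptor tyrosine kinases, was at 30 and 30.5 CPM with siNTC, 122 and 114 CPM with siTAZ #1 and 83.9 and 97.2 CPM with siTAZ #2, and ETV1, a transcription factor downstream of ERK, was at 22.2 and 21.8 CPM with siNTC, 112 and 136 CPM with siTAZ #1 and 59.6 and 65.1 CPM with siTAZ #2. Both were several times above the controls, although ETV1 was the higher with siTAZ #1 (log2 difference 0.99, standard error 0.12, edgeR FDR 1.4e-05). The list of AP-1 and early response factors had 10 raised and 4 lowered of 22, with EGR1 2.52-fold and EGR2 5.38-fold higher, IER3 2.69-fold higher, and the phosphatase gene DUSP1 1.73-fold lower. Of the guanylate cyclase, cyclic nucleotide and GPCR genes 14 of 41 were lowered and 4 raised. GUCY1A2, a subunit of the nitric oxide receptor, was at 9.32 and 7.65 CPM with siNTC, 2.56 and 2.46 CPM with siTAZ #1 and 0.714 and 0.669 CPM with siTAZ #2. Its partner subunit GUCY1B3 was at 16.7 and 13.3 CPM with siNTC, 6.77 and 5.36 CPM with siTAZ #1 and 1.9 and 1.58 CPM with siTAZ #2, and both were lowest with siTAZ #2 (log2 difference 1.84, standard error 0.40, edgeR FDR 0.002 for GUCY1A2).

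Other signalling lists had members on both sides. Wnt ligands, receptors and inhibitors had 9 raised and 5 lowered of 26. WNT16, a ligand, was at 1.38 and 1.42 CPM with siNTC, 3.51 and 5.24 CPM with siTAZ #1 and 5.09 and 4.13 CPM with siTAZ #2, while DKK1, a secreted inhibitor of Wnt coreceptors, was at 31.5 and 30.7 CPM with siNTC, 17.7 and 13.2 CPM with siTAZ #1 and 9.9 and 11.1 CPM with siTAZ #2. WNT16 was thus 3.22-fold higher and the inhibitor 2.4-fold lower. Ligands of the list lay on both sides, as WNT2, named above, was 4.6-fold lower. Hypoxia-induced genes had 6 raised and 4 lowered of 20, an order that turned to 7 and 8 without siNTC replicate 1. Among them ANGPTL4, an inhibitor of lipoprotein lipase, was at 2.75 and 5.98 CPM with siNTC, 17.3 and 13.3 CPM with siTAZ #1 and 31.9 and 36.4 CPM with siTAZ #2, and VEGFA, the angiogenic growth factor, was 1.92-fold higher. Interferon-induced genes, which double-stranded RNA can turn on in transfected cells, had 4 raised and 5 lowered of 29, and 7 raised and 6 lowered without siTAZ #1 replicate 2. TRIM22 was at 38.5 and 35.3 CPM with siNTC, 44.2 and 47.2 CPM with siTAZ #1 and 112 and 102 CPM with siTAZ #2 and IFIT2 at 9.69 and 13.3 CPM with siNTC, 5.56 and 6.39 CPM with siTAZ #1 and 7.28 and 7.78 CPM with siTAZ #2, so that members of this list lay on opposite sides.

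Ion channels and pumps had 9 raised and 8 lowered of 32. KCNN2, a calcium-activated potassium channel, was at 10.8 and 15.5 CPM with siNTC, 2.94 and 4.93 CPM with siTAZ #1 and 0.666 and 0.243 CPM with siTAZ #2, and KCNJ2, an inward rectifier, was 4.81-fold lower, while CACNA2D1, an accessory subunit of calcium channels, was 3-fold higher. Kinesins and dyneins had 12 raised and 4 lowered of 38. In the nucleus, the lowered genes outnumbered the raised ones among polymerase II and mediator subunits (15 and 6 of 73), chromatin modifiers (22 and 14 of 74) and DNA repair genes (14 and 8 of 59). The histone genes in the table, whose replication-dependent forms lack long poly(A) tails, had 3 lowered and 2 raised of 15. HIST1H2BK was at 57.7 and 48.7 CPM with siNTC, 21.5 and 22.3 CPM with siTAZ #1 and 11.7 and 9.73 CPM with siTAZ #2, below the controls in every siTAZ library. Proteasome subunits had 14 lowered and 7 raised of 43, among them PSMB9, a subunit of the immunoproteasome, at 1.87-fold lower and PSMC6, an ATPase of the cap, at 1.82-fold higher.

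Matrix genes divided by class. Of 11 fibrillar collagens 3 were raised and 3 lowered. COL1A2, a chain of type I collagen and one of the fibroblast markers summed above, was at 12077 and 12348 CPM with siNTC, 6779 and 5593 CPM with siTAZ #1 and 6853 and 7886 CPM with siTAZ #2. COL3A1 was 1.24-fold lower and COL5A2 1.31-fold lower, while COL24A1, COL11A2 and COL27A1, minor fibrillar chains, were 5.14-fold, 4.79-fold and 1.86-fold higher. Of the other collagens 7 of 14 were raised and 1 lowered. COL12A1, which lies along collagen fibrils, was at 953 and 929.6 CPM with siNTC, 1915 and 1888 CPM with siTAZ #1 and 2427 and 2599 CPM with siTAZ #2, COL7A1, of anchoring fibrils, was 2.24-fold higher, and COL14A1 was lowered at 2.24-fold. Among collagen-processing enzymes 9 of 24 were raised and 2 lowered, with P4HA3, a prolyl hydroxylase subunit, 2.83-fold higher and PLOD2, a lysyl hydroxylase, at 51.7 and 40 CPM with siNTC, 87.8 and 134 CPM with siTAZ #1 and 162 and 134 CPM with siTAZ #2.

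Matrix proteases and their inhibitors had 20 raised (51.3%) and 3 lowered of 39, with a median log2 ratio of 0.79. After PLAT, the raised ones with the widest gaps were MMP15, a membrane-bound metalloproteinase, at 3.63 and 5 CPM with siNTC, 10.2 and 9.32 CPM with siTAZ #1 and 10.2 and 14.5 CPM with siTAZ #2, and ADAMTS12, at 36.6 and 34.9 CPM with siNTC, 64.5 and 66.5 CPM with siTAZ #1 and 82.8 and 97.5 CPM with siTAZ #2. The lowered ones were ADAMTS15, ADAM12 (1.73-fold lower) and PRSS23 (1.67-fold lower). Elastic fibre and matricellular proteins stood on the lowered side, with 8 lowered and 3 raised of 23. Besides CTGF these included CCBE1, a secreted protein needed for lymphatic growth, at 131 and 130.4 CPM with siNTC, 24 and 24.8 CPM with siTAZ #1 and 48.4 and 36.1 CPM with siTAZ #2, and RELN, which encodes reelin, 2.4-fold lower. EMILIN1, an elastic fibre glycoprotein, was raised, at 169 and 179 CPM with siNTC, 308 and 417 CPM with siTAZ #1 and 443 and 429 CPM with siTAZ #2. Of the proteoglycan and hyaluronan genes 6 of 25 were lowered and 1 raised, and KIAA1199, which takes part in hyaluronan breakdown, was at 65.8 and 72.5 CPM with siNTC, 35 and 41.7 CPM with siTAZ #1 and 8.57 and 6.14 CPM with siTAZ #2.

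For the cytoskeleton, caveolae and endocytosis genes had 11 lowered and 6 raised of 30. CAV1, the main coat protein of caveolae, was at 1305 and 1351 CPM with siNTC, 311 and 294 CPM with siTAZ #1 and 465 and 416 CPM with siTAZ #2. DAB2, a clathrin adaptor, was at 283 and 288 CPM with siNTC, 116 and 107 CPM with siTAZ #1 and 123 and 129 CPM with siTAZ #2. All siTAZ libraries were below the controls in both, while CAV2 was 1.32-fold higher. Tubulins and microtubule-associated proteins had 14 lowered and 6 raised of 33, with NAV2 3.34-fold lower and MAP4 1.6-fold lower. Actin regulators were on both sides (13 raised and 10 lowered of 49). CORO1C, a coronin that binds actin filaments, was at 509.9 and 561 CPM with siNTC, 152 and 157 CPM with siTAZ #1 and 186 and 155 CPM with siTAZ #2, and CYFIP2, a subunit of the WAVE complex, was at 8.94 and 9.87 CPM with siNTC, 49.8 and 45.6 CPM with siTAZ #1 and 38.1 and 37.8 CPM with siTAZ #2. Of 20 contractile genes of smooth muscle, 4 were lowered and 3 raised, and CNN1, calponin, was at 38.6 and 35.8 CPM with siNTC, 27.4 and 27.2 CPM with siTAZ #1 and 26 and 23.9 CPM with siTAZ #2. Among integrins and focal adhesion genes 11 were lowered (28.9%, beside 16.4% over all genes) and 9 raised (23.7%, beside 22.2%) of 38. The lowered ones were 1.14-fold to 1.87-fold lower. The raised ones, ITGB5 and ITGA2 among them, were 1.3-fold to 4.06-fold higher. ITGB5, a subunit of a vitronectin receptor, was at 175 and 168 CPM with siNTC, 445 and 424 CPM with siTAZ #1 and 714 and 746 CPM with siTAZ #2 and ITGA2, a subunit of a collagen receptor, at 149 and 125 CPM with siNTC, 764 and 947 CPM with siTAZ #1 and 249.7 and 261 CPM with siTAZ #2.

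Of 55 genes of mitosis 6 were lowered (10.9%, less than the 16.4% over all genes) and 0 raised (beside 22.2% over all genes). The siRNAs lay on opposite sides of the control here, with a median log2 ratio over the list of 0.27 with siTAZ #1 and -0.88 with siTAZ #2, both against the same siNTC libraries. The lowered ones with the widest gaps were CDC25B (1.79-fold lower), FOXM1, a transcription factor of mitotic genes, at 198 and 188 CPM with siNTC, 96.6 and 89.3 CPM with siTAZ #1 and 107 and 115 CPM with siTAZ #2, and AURKA (1.77-fold lower). DNA replication genes had 10 lowered and 4 raised of 50, and their median log2 ratio too was above 0 with siTAZ #1 (0.20) and below it with siTAZ #2 (-0.51). Of the cell death regulators 9 of 35 were raised (25.7%, beside 22.2% over all genes) and 2 lowered. BMF, PMAIP1 and BBC3, which encode BH3-only proteins that promote apoptosis, were 6.33-fold, 2.43-fold and 2.22-fold higher. The lowered ones were CASP8, an initiator caspase (1.76-fold lower), and BCL2, which opposes apoptosis (2.01-fold lower).

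Zinc finger genes formed the largest list. Of 436 genes named ZNF, 116 were raised (26.6%) and 17 lowered (3.9%), with a median log2 ratio of 0.25 and with raised genes at a median of 1.6-fold. Their median transcript GC content was 42.8%, against 47.4% over all genes, and its part in the counts was not tested. On chromosome 19, where many of these genes lie in clusters, 70 of 218 were raised and 2 lowered. Of the other 218 ZNF genes 46 were raised, which is to be read beside 22.2% over all genes. Of the 599 other genes of chromosome 19, 152 were raised (25.4%). ZNF680 was at 3.44 and 4.19 CPM with siNTC, 9.71 and 11.3 CPM with siTAZ #1 and 9.28 and 8.03 CPM with siTAZ #2, and ZNF395 was among the lowered ones at 2.29-fold. The members of this family share similar exons, so counts may be split between neighbours. HOX genes, which keep positional identity, had 5 raised and 0 lowered of 13, with HOXB5 at 47 and 47.8 CPM with siNTC, 69 and 71.5 CPM with siTAZ #1 and 97.4 and 107 CPM with siTAZ #2.

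**Figure D3:**
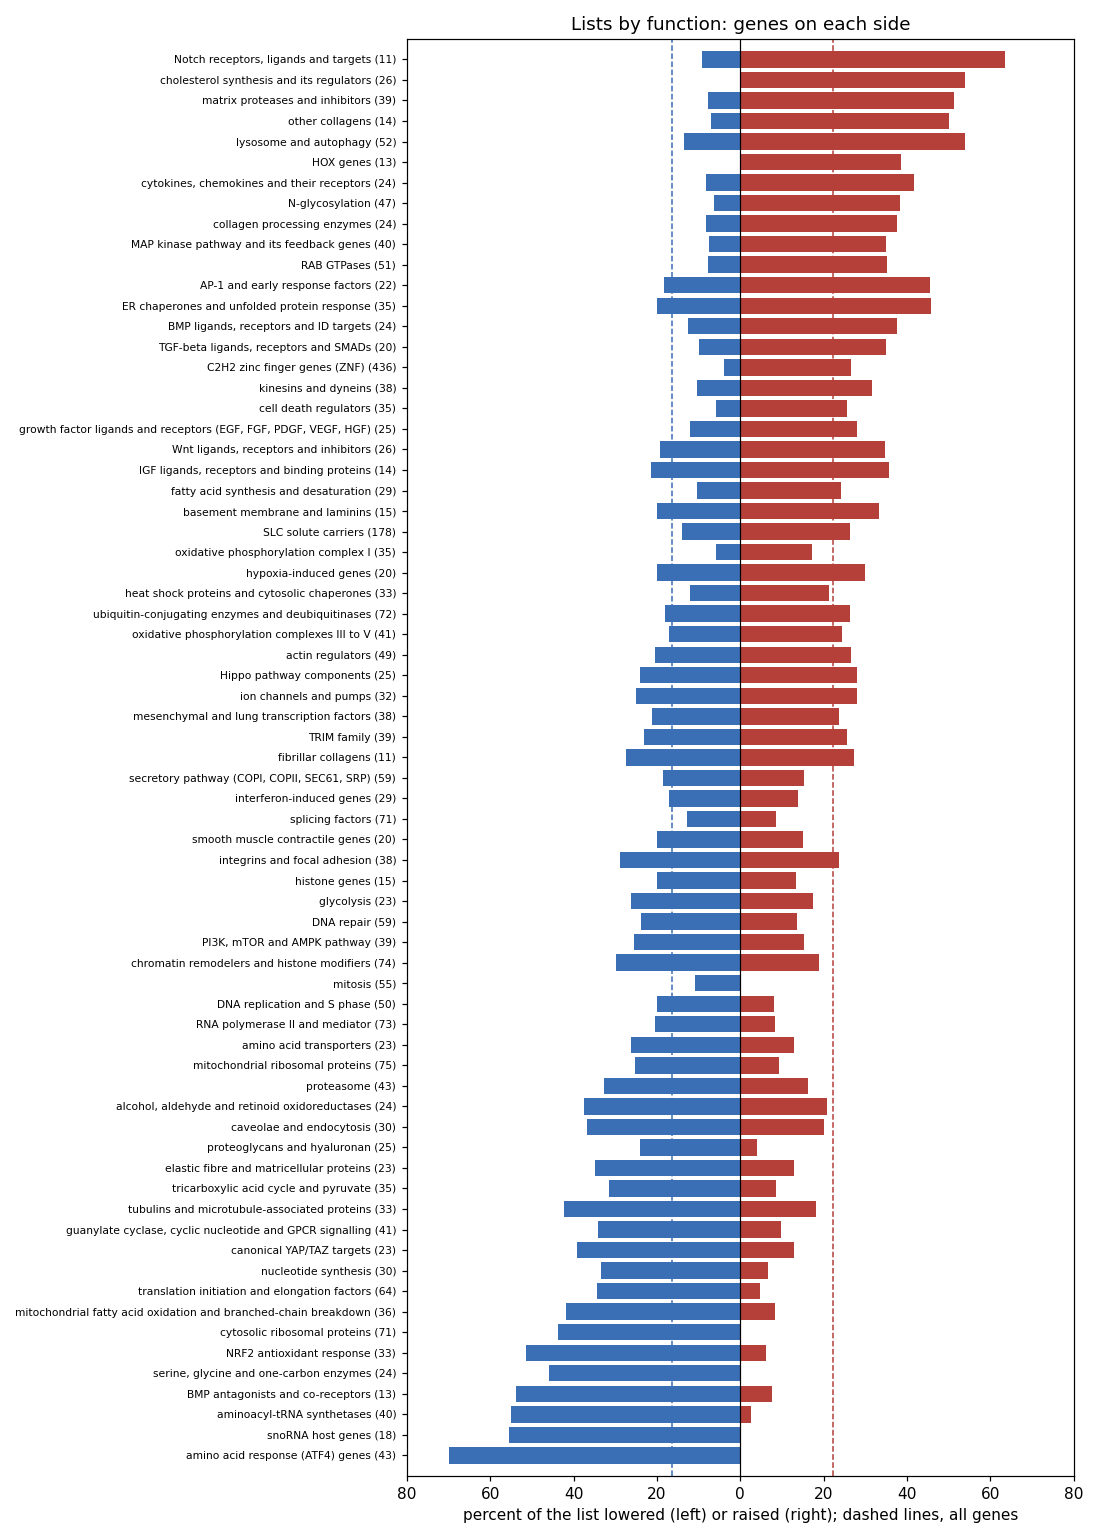
For 69 of the 71 lists, percent of each list's genes that averaged 50 counts or more that were lowered (bars to the left) or raised (bars to the right), with the number of such genes in parentheses. Dashed lines mark 16.4% lowered and 22.2% raised over all genes. The amino acid response list reaches 69.8% lowered at the bottom, and the Notch list 63.6% and the cholesterol list 53.8% raised near the top.

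The next question was how far the members depended on which siRNA was used. The siRNAs were compared with each other by edgeR's quasi-likelihood test, a contrast that the rule did not use, although it used the same libraries. Of 13440 genes tested, 5132 differed at an FDR under 0.05 (38.2%), with 2621 higher (19.5%) and 2511 lower (18.7%) with siTAZ #1. Among raised genes 782 of 2866 tested differed (27.3%), 279 higher and 503 lower with siTAZ #1. Among lowered genes 660 of 2099 differed (31.4%), 396 higher and 264 lower with siTAZ #1. Of the genes on neither side 3690 of 8475 differed (43.5%). A gene on which the siRNAs act in opposite directions cannot be a member, so these shares are given without a comparison.

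The members with the lowest FDRs between the siRNAs are given next, and by the rule these can differ in size only and not in side. BMP2, a BMP ligand, was at 9.26 and 7.4 CPM with siNTC, 129 and 142 CPM with siTAZ #1 and 14.4 and 13.9 CPM with siTAZ #2. It was close to the controls with siTAZ #2 and far above them with siTAZ #1 (log2 difference 3.25, standard error 0.14, edgeR FDR 4.1e-10). AMIGO2, a cell adhesion protein, was at 6.19 and 6.11 CPM with siNTC, 8.82 and 9.63 CPM with siTAZ #1 and 83.8 and 81.5 CPM with siTAZ #2, and CSGALNACT2, of chondroitin sulfate synthesis, was at 14.3 and 16.3 CPM with siNTC, 25.2 and 26.6 CPM with siTAZ #1 and 114 and 114 CPM with siTAZ #2. Here siTAZ #2 gave the higher levels, with log2 differences of -3.17 (standard error 0.16, edgeR FDR 1.7e-09) and -2.14 (standard error 0.13, edgeR FDR 1.4e-08). On the lowered side, NID2, which encodes the basement membrane protein nidogen 2, was at 509 and 484 CPM with siNTC, 452 and 391 CPM with siTAZ #1 and 90.4 and 93.1 CPM with siTAZ #2 (log2 difference 2.20, standard error 0.12, edgeR FDR 3.6e-09). FBN2 and KIF3B, which encode a fibrillin and a kinesin, were also lower with siTAZ #2, by log2 differences of 1.73 and 1.81 (edgeR FDR 2.8e-08 and 2.1e-08). GDF5, a BMP family ligand, was at 87.7 and 96.8 CPM with siNTC, 13.7 and 16 CPM with siTAZ #1 and 85.7 and 77.5 CPM with siTAZ #2, so that it was low with siTAZ #1 and within a small distance of the controls with siTAZ #2 (log2 difference -2.46, standard error 0.14, edgeR FDR 4.8e-09). CSRP1, a LIM protein of the actin cytoskeleton, and EIF4EBP2, a repressor of translation, showed the same order, with log2 differences of -1.82 and -1.58 (edgeR FDR 1.2e-08 and 4.4e-08).

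**Figure D4:**
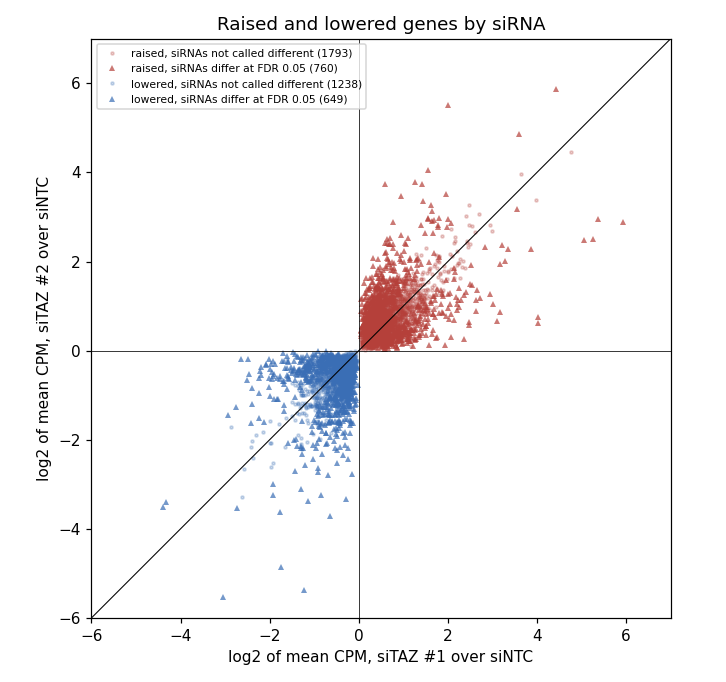
Log2 of mean CPM over siNTC with siTAZ #1 (horizontal) and siTAZ #2 (vertical) for raised (red) and lowered (blue) genes that averaged 50 counts or more. Triangles mark genes that differed between the siRNAs at an edgeR FDR under 0.05, dots all others, and the line marks equal values. All points lie at the upper right or the lower left because of the rule, and both axes share the siNTC libraries.

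Sequence and position were looked at last. Raised genes had a median transcript length of 4220 bases and a median GC content of 47.6%, lowered genes 4010 bases and 47.9%, and all genes 3990 bases and 47.4%, with values for 97.1% of the genes. The medians were close, but the sides were not evenly spread over GC content. The genes were divided by GC content into 4 bins of 2796 genes. In the lowest bin 24.7% were raised and 11.8% lowered, and in the highest bin 26.7% and 12.7%. The middle bins had 19.1% and 18.6% raised and 19% and 22.1% lowered. The siRNAs differed here, since the median log2 ratio to siNTC was 0.22 with siTAZ #1 and 0.05 with siTAZ #2 in the lowest bin, and 0.04 and 0.23 in the highest. Whether GC content had a part in the calls was not tested. By mean count, the raised share went from 19.5% in the lowest bin to 25.2% in the highest and the lowered share from 14% to 19.7%.

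**Figure D5:**
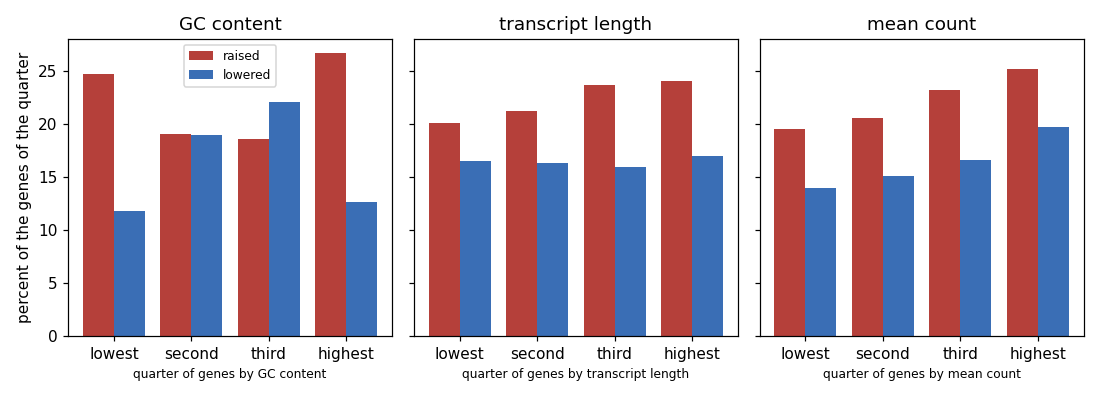
Percent of genes raised (red) and lowered (blue) in 4 bins of equal size by GC content, transcript length and mean count, over genes with at least 50 counts on average. The outer bins of GC content hold more raised and fewer lowered genes than the middle bins, and both shares are higher in the bins with more counts.

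Among the chromosomes, the raised share was highest on chromosome 13 (60 of 209 genes, 28.7%) and lowest on chromosome 20 (47 of 310, 15.2%), where 21.9% were lowered. Chromosome 19 had 27.2% raised and 11.3% lowered. Promoters of 300 bases, from 250 before to 50 after the start, were found in RefSeq for 9028 of the 11523 genes (78.3%), too few for a comparison of the sides, so the motif check is void as a comparison and its shares are given only as a description. On either strand GGAATG was held by 11.8% of raised, 10.5% of lowered and 10.5% of all promoters, the AP-1 motif TGANTCA by 4.55%, 4.47% and 4.26%, and TGATGNAAN by 1.06%, 1.53% and 1.56%. For the E2F motif TTTNGCGC the shares were 2.07%, 2.67% and 3.07%.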

How the data were processed

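The deposited table holds raw read counts per gene symbol, which the authors made from Ion Proton reads aligned to hg19 with TMAP and counted with HTSeq 0.6.1. The strand setting and the treatment of reads that fit several genes are not given in the sources used here, so overlapping genes and near-identical copies are uncertain. Of 23368 entries, 13 had become dates and were left out (0.0458% to 0.0506% of the counts). Positions in GRCh37 were found by symbol for 19556 genes and by synonym for 1922, and 147 raised and 116 lowered genes without a position were kept, 2 of which were nearly missing from the second siTAZ #1 library.

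CPM was the count over the library's sum. Ratios are of mean CPMs, with a floor of 3 counts over a group. Members and gene lists were chosen with earlier results of these data known. The genes named were WWTR1, the 12 members per side with the widest gap (0.1 CPM added), the 3 widest per list and side, the 3 lowest FDRs per side and siRNA direction, the 2 genes just inside and just outside the rule per side, and genes with a printed promoter, all with a mean of at least 50 counts.

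The siRNAs were compared with edgeR 4.0.16 in R 4.3.3 by the quasi-likelihood test on TMM-normalized counts of 13440 genes that passed filterByExpr, fitted over the 3 groups and adjusted by Benjamini-Hochberg. On simulated counts this fit recovered 167 of 200 changed genes with 10 false calls. The 200 genes were all well counted and changed by the same size, and the spread was taken from these data. The simulation thus does not give the rate of false calls in the real contrast. DESeq2 1.42.0, other scalings and filters, and leaving out each library were alternatives. The labels number 2 replicates per group and do not say whether they came from separate cultures, so p-values measure only the spread between these libraries, which may be technical. Some genes and lists are not reported here.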

Additional observations from a re-analysis of the deposited data

Results flagged for a closer look

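Of the 167 genes described above, 4 had a siTAZ library far from the other 3 by Dixon's ratio of the gap to the whole range at the 95% level. Chance alone gives this in about 1 in 20 groups of libraries treated alike. The siTAZ libraries come from different siRNAs, so that rate need not hold here. In CORO1C the first replicate of siTAZ #2 was at 186 CPM against 152 to 157 CPM in the other 3. In EGR1 and IER3 the second replicate of siTAZ #1 stood highest, at 110 CPM against 87.9 to 91.2 CPM and at 234 CPM against 195 to 198 CPM. In COL11A2 the first replicate of siTAZ #1 was at 1.28 CPM, next to 1.13 CPM in a siNTC library, and the other 3 were at 4.86 to 5.05 CPM.

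Of the 167 described genes with a test, 84 had effects that differed between siTAZ #1 and siTAZ #2 by edgeR's quasi-likelihood test at an FDR under 0.05, beside 38.2% of all 13440 genes tested. Some of the described genes were named for a low FDR in this same test, which raises the count by selection. The values are log2 differences of siTAZ #1 minus siTAZ #2. Raised genes that stood higher with siTAZ #1 had differences of 3.25 for BMP2, 2.76 for AREG, 2.41 for STC1, 2.32 for HES1, 1.74 for ITGA2, 1.30 for RRM2B, 1.06 for PLAT, 0.99 for ETV1, 0.49 for TGFBR1, 0.39 for LATS2, 0.38 for SPRY4 and 0.36 for GDF15. Raised genes that stood higher with siTAZ #2 had differences of -3.17 for AMIGO2, -2.14 for CSGALNACT2, -1.70 for HMGCS1, -1.65 for BMF, -1.46 for CHRNA1, -1.28 for CCDC68, -1.23 for TRIM22, -1.17 for ANGPTL4, -0.97 for COL7A1, -0.97 for FADS2, -0.79 for EGR2, -0.76 for NOTCH3, -0.75 for ITGB5, -0.66 for FASN, -0.66 for ARHGEF17, -0.66 for CYP51A1, -0.60 for STARD4, -0.54 for HOXB5, -0.51 for COL27A1, -0.51 for F3, -0.47 for ADAMTS12, -0.43 for PLOD2 and -0.41 for COL12A1. Lowered genes that kept more RNA with siTAZ #1 had differences of 3.05 for KCNN2, 2.46 for IL6R, 2.37 for KIAA1199, 2.20 for NID2, 2.06 for COL14A1, 1.84 for GUCY1A2, 1.81 for KIF3B, 1.77 for GUCY1B3, 1.73 for FBN2, 1.48 for HADHA, 1.35 for SLC6A9, 1.34 for NAV2, 1.28 for TGFBR3, 1.09 for SLC7A14, 1.07 for AARS, 1.02 for HIST1H2BK, 0.92 for ASNS, 0.89 for CXCL12, 0.86 for RPL13A, 0.82 for ALDH1L2, 0.81 for XBP1, 0.80 for PPAP2B, 0.79 for MRPL24, 0.65 for PSAT1, 0.63 for SNHG8, 0.61 for RELN, 0.55 for CTGF, 0.54 for DKK1, 0.51 for DUSP1, 0.49 for AMOTL1, 0.44 for CBS, 0.43 for SLC7A5, 0.42 for MAP4, 0.38 for SUCLG1 and 0.30 for GREM1. Lowered genes that kept more RNA with siTAZ #2 had differences of -2.46 for GDF5, -1.82 for CSRP1, -1.58 for EIF4EBP2, -1.14 for SUCLG2, -0.95 for IGFBP3, -0.89 for TXNIP, -0.89 for PSMB9, -0.80 for CCBE1, -0.72 for WWTR1, -0.55 for CAV1, -0.54 for IARS, -0.33 for CSNK2B, -0.32 for CRIM1 and -0.26 for COL5A2.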

How the results depend on the processing

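With another scaling the raised count was 2968 to 3256 and the lowered count 2474 to 2817, and the raised genes made up 51.3% to 56.8% of the calls in place of 59%. TMM kept 88.3% of the raised and 100% of the lowered genes. Leaving out 1 library can only add members, and gave 3821 to 4829 raised and 2701 to 3972 lowered genes. The lowered count moved by more than 1.5 times without siNTC replicate 1 (3795) and without siNTC replicate 2 (3972), since a single control is easier to clear. Without the second siTAZ #1 library the counts were 3858 and 2978. Lists with more raised than lowered members were 35, and 28 to 38 under the alternatives. Among lists described above, the balance turned with another scaling for the Hippo components alone, and without 1 library for the hypoxia and interferon lists.

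Between the siRNAs 1442 members differed. Without siTAZ #2 replicate 2 the raised genes that differed were 514 in place of 782 (the cause was not tested), and leaving out each library gave 514 to 798 raised, 502 to 642 lowered and 1016 to 1433 members in all. DESeq2 called 1440, of which 1418 were shared, edgeR's exact test 1334, a fit of the siTAZ libraries alone 1221, and a fit with the RANGAP1 region kept 1133. Same-numbered replicates did not deviate in the same direction (r of -0.004, 0.006 and -0.19, the last between the siTAZ groups). These values cannot show whether libraries were prepared together, and the main fit used no replicate block. With a replicate block 1251 members differed (679 raised and 572 lowered), 1249 of them among the 1442. With the numbers of the siTAZ groups crossed, an alternative chosen after seeing the data, 1629 differed. Calls of low genes are limited by 1 CPM standing for as few as 15.6 counts.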
